A study of Rattus norvegicus with 24 samples.

Results

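A set of 6 corticosteroid and angiotensinogen genes was followed in rat kidney. They are Hsd11b1 and Hsd11b2, which interconvert active and inactive glucocorticoid, the receptor genes Nr3c1 and Nr3c2, the kinase gene Sgk1 and the angiotensinogen gene Agt. They were taken by gene symbol from the annotation of the array. Each of the 6 genes had 2 probe identifiers, 12 in all of 3742, and 1 of the 2 carried values, so 6 probes of the 1766 with a value on at least 1 array were described. Of these 6 probes 5 had a value on all 24 arrays, as 701 probes of the series did, and Agt had a value on 21. RefSeq gene records of the assembly GRCr8 place Hsd11b1 on chromosome 13, Hsd11b2, Nr3c2 and Agt on chromosome 19, Nr3c1 on chromosome 18 and Sgk1 on chromosome 1.

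The study compared kidney total RNA of rats kept on LS and on HS, taken here as low and high dietary salt, with both rats of a pair from the same strain. One strain, SS, is the Dahl salt-sensitive rat. The other, SS-13BN/Mcw, is consomic: its chromosome 13, where Hsd11b1 lies, comes from the Brown Norway strain and the rest from SS. Atp1b1 and Glul, described below, also lie on chromosome 13. The 4 groups were SS at 3 days, SS overnight, SS-13BN/Mcw at 3 days and SS-13BN/Mcw overnight. Each group held 3 rat pairs, and each pair was hybridised on 2 arrays with Cy5 and Cy3 exchanged. The labels gave neither age nor sex of the rats, nor a part of the kidney. In every pair a rat numbered 1 to 3 met a rat with a higher number, and the numbers 1 to 3 recurred at both times within a strain, so the times of a strain appear to share those rats.

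Glucocorticoids and aldosterone act on the kidney through 2 related nuclear receptors. Nr3c1 encodes the glucocorticoid receptor and Nr3c2 the mineralocorticoid receptor, which binds cortisol or corticosterone as well as aldosterone. Hsd11b2 inactivates glucocorticoid in aldosterone target cells of the distal nephron and so keeps the mineralocorticoid receptor open to aldosterone, and Hsd11b1 works mainly in the other direction and regenerates active glucocorticoid. Sgk1, a kinase induced by both steroids, keeps epithelial sodium channels at the cell surface. Agt encodes angiotensinogen, the precursor of the angiotensin peptides, which is made chiefly in liver and also in the proximal tubule.

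The deposited table held log ratios between the rats of an array. Neither the base of the logarithm nor the rat in the numerator was given in the sources used here, so a value is described only by its sign, as on the positive or negative side, with no fold and no direction with salt. A value of 0 stood for no difference between the rats of a pair. Arrays held 877 to 1412 values, and precision is limited by the number of rat pairs in a group. The values of swapped arrays of a pair correlated with r from -0.0595 to 0.749, and with r from 0.169 to 0.825 in 12 of 12 pairs after the mean of each dye orientation was removed, so the arrays were taken as already turned to 1 direction. A table of ratios holds no level of a gene, so the tissue could be checked only by which genes had values. Values were present for 18 of 31 proximal tubule markers, 6 of 10 markers of thick ascending limb and distal tubule and 3 of 11 collecting duct markers. Both SS groups had runs of slide numbers of their own, so in comparisons with SS the order of slides and the group cannot be told apart.

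Hsd11b1 had the farthest ratio from 0 of the 5 genes tested in SS-13BN/Mcw rats at 3 days and lay close to 0 on average in the other 3 groups. Its log ratios were 0.40, 0.39 and -0.62 in the SS pairs at 3 days, and 0.16, -0.02 and -0.10 in the SS pairs overnight. They were -0.94, -1.20 and -1.15 in the SS-13BN/Mcw pairs at 3 days, and 0.08, -0.24 and -0.33 in the SS-13BN/Mcw pairs overnight. All 3 SS-13BN/Mcw pairs at 3 days lay below the pairs of the other groups, and the SS pairs at 3 days split, with the pair of rat 3 on the negative side and the other 2 on the positive side. The group means were 0.06 ± 0.59 in SS at 3 days and 0.01 ± 0.13 in SS overnight (SD, n = 3 each). In SS-13BN/Mcw rats they were -1.10 ± 0.14 at 3 days and -0.16 ± 0.22 overnight (SD, n = 3 each).

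**Figure D1:**
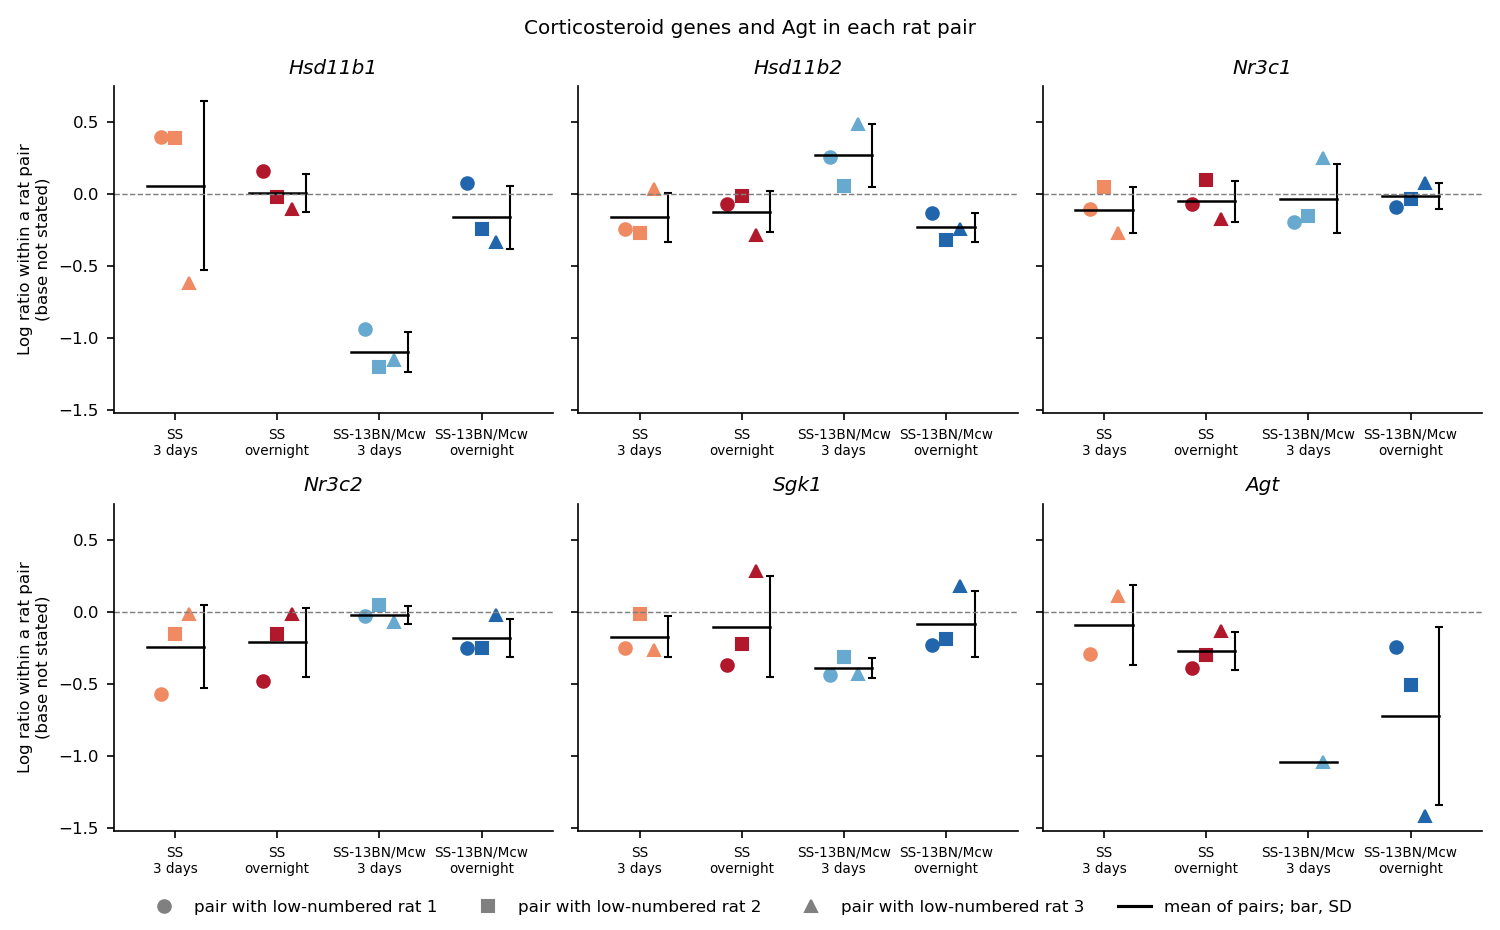
Log ratio (base not stated, vertical axis) of each of the 6 genes in every rat pair, by group; symbols mark the pair of low-numbered rat 1, 2 or 3, lines the mean and bars the SD. Hsd11b1 in SS-13BN/Mcw at 3 days sits between -1.20 and -0.94, below all pairs of the other groups, and Agt has 1 pair with both arrays in that group.

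The ratio of Hsd11b1 in SS-13BN/Mcw at 3 days differed from 0 in the limma fit over all probes (adjusted p = 0.00853), where 27 of 907 tested probes did (2.98 percent), and it ranked 2 of 907 by p. Fewer cells that express a gene and less of its RNA per cell cannot be told apart in whole tissue. The result was also on the negative side on all 6 arrays. With the low-numbered rat in Cy5 the arrays read -1.37, -1.41 and -1.28, and with that rat in Cy3 they read -0.50, -0.99 and -1.03. The difference stayed past the threshold in 11 of 11 other ways of handling the arrays (adjusted p from 1.61e-05 to 0.0152). One of these turned the sign of the array with the high-numbered rat in Cy5, as if ratios were Cy5 over Cy3, and gave -0.26. In that average a ratio read alike on both arrays cancels. If the arrays were already in 1 direction, it shows only how far the orientations stood apart and is no check of the ratio. When a pair was left out, the call was lost in 2 of 3 cases. The ratio was -1.04 (adjusted p = 0.0617) without the pair of rat 2 and -1.07 (adjusted p = 0.0855) without that of rat 3. Without that of rat 1 it was -1.18 (adjusted p = 0.0225).

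Whether the strains differed in Hsd11b1 was asked at each time. At 3 days SS minus SS-13BN/Mcw was 1.16 ± 0.23 (SE), with a 95 percent interval from 0.63 to 1.68, which was the highest of the differences of 824 probes and ranked 2 by p. It did not pass the adjustment (adjusted p = 0.114). No probe passed at this time (limma, 0 of 824, 0 percent), with 69 of 824 at an unadjusted p under 0.05 (8.37 percent). All 3 SS pairs lay above all 3 SS-13BN/Mcw pairs, and pairs of the strains did not overlap for 15.8 percent of all probes. The difference passed in 3 of 11 other settings, with arrays scaled (adjusted p = 0.0403), with the low-numbered rat in Cy5 alone (adjusted p = 0.0485) and in the fit of single arrays (adjusted p = 0.00271). Of the 6 pairs left out in turn it passed without 1, the SS pair of rat 3, at 1.49 (adjusted p = 0.000222). Adjusted p ran from 0.000222 to 0.414 over the left-out pairs and from 0.00271 to 0.852 over the other settings. Overnight the difference of the strains was 0.17 ± 0.23 (SE), with an interval from -0.35 to 0.70, and the pairs overlapped (adjusted p = 0.995).

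Between times, Hsd11b1 in SS-13BN/Mcw differed by -0.94 ± 0.23 (SE; 3 days minus overnight), with no overlap of the pairs and rank 3 of 897 by p (adjusted p = 0.276). No probe passed in this comparison (limma, 0 of 897, 0 percent), with 101 of 897 at an unadjusted p under 0.05 (11.3 percent). Pairs of the 2 times did not overlap for 22.7 percent of these probes. In the SS strain the same difference was 0.05 ± 0.23 (SE; adjusted p = 0.988). The difference of the time differences between strains, SS minus SS-13BN/Mcw, was 0.98 ± 0.32 (SE; adjusted p = 0.972), where 2 of 5 genes and 2.43 percent of 822 probes had an unadjusted p under 0.05 and none passed. Without the SS pair of rat 3 at 3 days it was 1.32 (adjusted p = 0.014, from 0.014 to 0.995 over the left-out pairs). For Hsd11b1 between times in SS-13BN/Mcw, 1 of 12 other settings passed, the fit of the 24 single arrays with the rat pair as a random block (adjusted p = 0.0297, with a highest value of 0.791 over the settings).

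**Figure D2:**
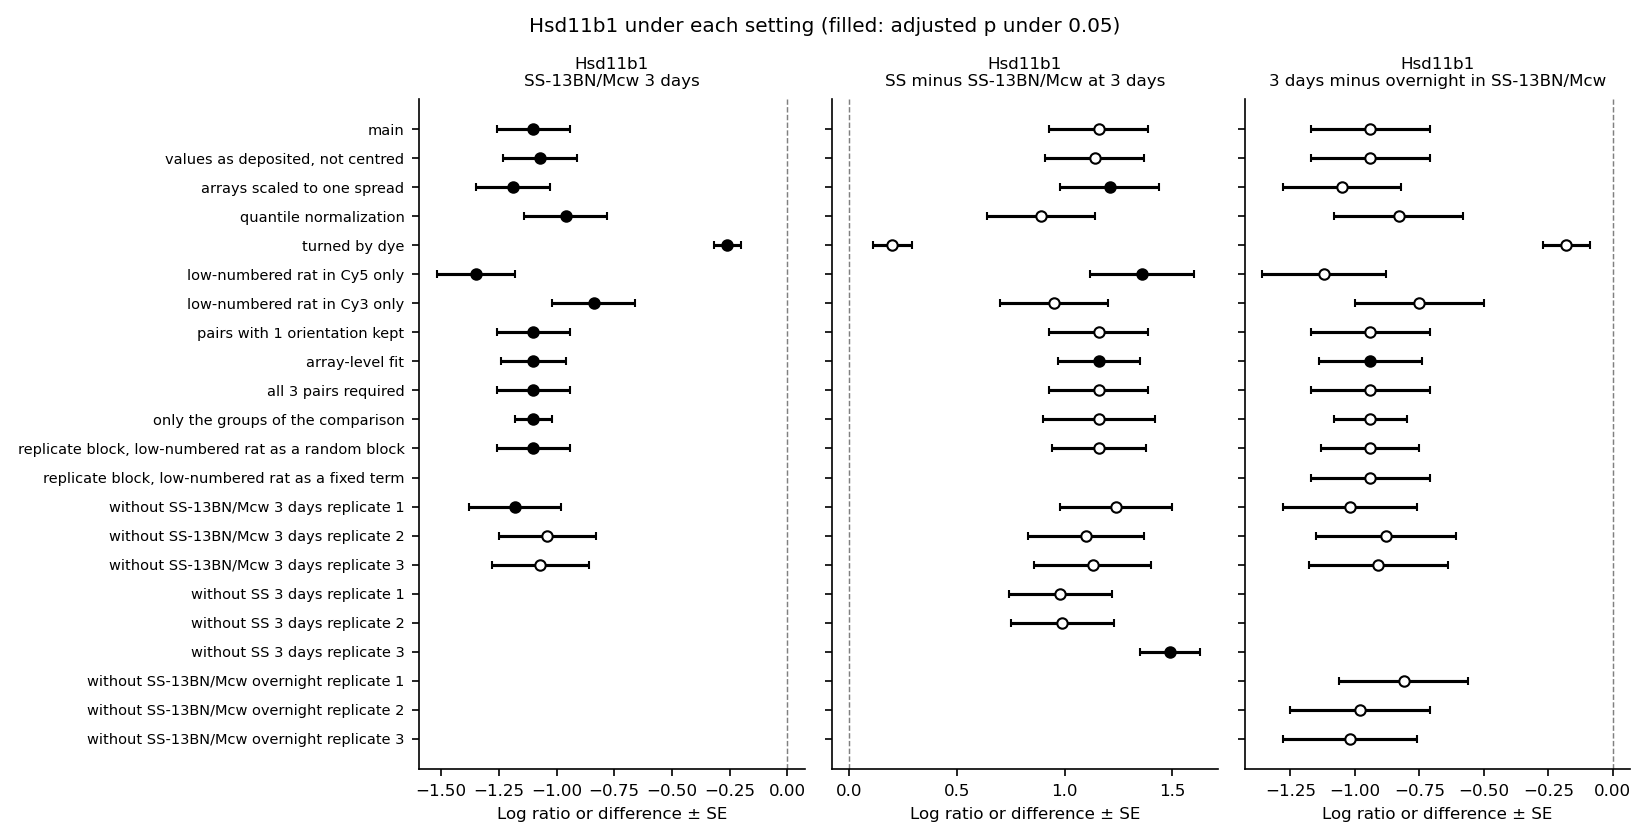
Hsd11b1 under each way of handling the arrays (rows) for the SS-13BN/Mcw group at 3 days, the strain difference at 3 days and the time difference in SS-13BN/Mcw; points are log ratios or their differences with SE, filled where the adjusted p was under 0.05. The 3 values stay on 1 side of 0 in every row, and those with arrays turned by dye lie nearest to 0 (-0.26, 0.20 and -0.18). In the turned row a ratio read alike in both orientations cancels, so that row is no check of the ratio if arrays were already in 1 direction.

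Hsd11b2, the inactivating enzyme, lay on the opposite side from Hsd11b1 in SS-13BN/Mcw at 3 days. With arrays turned by dye Hsd11b2 read -0.09, but there a ratio read alike on both arrays cancels. If the arrays were already in 1 direction, that value is no check of the side of Hsd11b2. Its log ratios were -0.24, -0.27 and 0.04 in SS at 3 days and -0.07, -0.01 and -0.28 in SS overnight. In SS-13BN/Mcw they were 0.26, 0.06 and 0.49 at 3 days and -0.13, -0.32 and -0.24 overnight. Only the SS-13BN/Mcw group at 3 days had all pairs on the positive side. The means were -0.16 ± 0.17 in SS at 3 days, -0.12 ± 0.14 in SS overnight, 0.27 ± 0.22 in SS-13BN/Mcw at 3 days and -0.23 ± 0.10 in SS-13BN/Mcw overnight (SD, n = 3 each). Neither SS-13BN/Mcw mean passed the adjustment (adjusted p = 0.155 at 3 days and 0.126 overnight). In 1 of 11 other settings each did, the fit of single arrays (adjusted p = 0.0322 at 3 days and 0.0399 overnight, with highest values of 0.29 and 0.34 over the settings).

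The 3 days minus overnight difference of Hsd11b2 in SS-13BN/Mcw was 0.50 ± 0.13 (SE), with an interval from 0.20 to 0.80, and it ranked 7 of 897 by p (adjusted p = 0.276). The pairs of the 2 times did not overlap, as for 22.7 percent of all probes. It passed in 1 of 12 other settings, the fit of single arrays (adjusted p = 0.0305, with a highest value of 0.983), and was -0.03 with arrays turned by dye. At 3 days the strain difference, SS minus SS-13BN/Mcw, was -0.43 ± 0.13 (SE; adjusted p = 0.328), and it ranked 16 of 824. It passed in 0 of 11 other settings (adjusted p from 0.0644 to 0.947) and was 0.03 with arrays turned by dye. In SS the time difference was -0.04 ± 0.13 (SE), and overnight the strains differed by 0.11 ± 0.13 (SE), with overlapping pairs in both cases. The difference of the time differences was -0.54 ± 0.18 (SE; adjusted p = 0.972). As a description, Hsd11b1 and Hsd11b2 correlated with r = -0.76 over 12 rat pairs, which share arrays and, within a strain, the low-numbered rats. The 3 SS-13BN/Mcw pairs at 3 days were the lowest in Hsd11b1 and the highest in Hsd11b2. This r thus in part restates that group, and r without it was not taken.

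**Figure D3:**
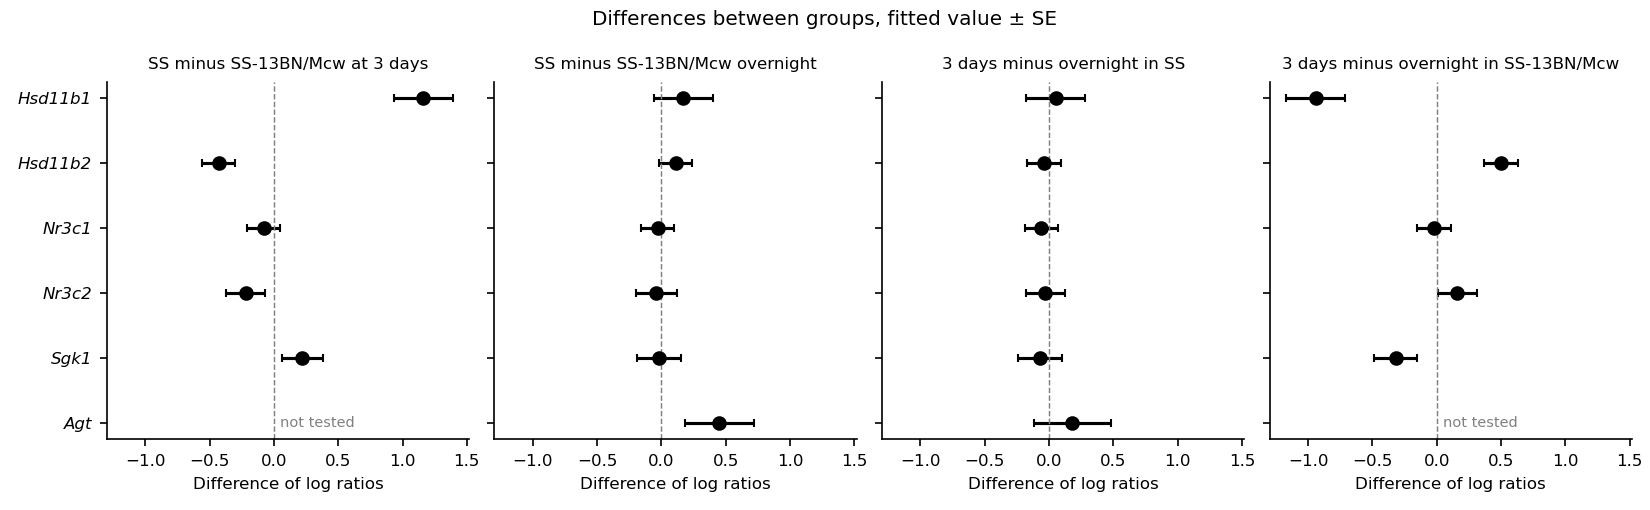
Fitted differences of log ratios (horizontal axis, bars SE) of each gene between strains at 3 days and overnight, SS minus SS-13BN/Mcw, and between times in each strain, 3 days minus overnight. Hsd11b1 and Hsd11b2 lie on opposite sides of 0 between strains at 3 days (1.16 and -0.43) and between times in SS-13BN/Mcw (-0.94 and 0.50). Neither passed the adjustment over all probes. Arrays turned by dye, where a ratio read alike in both orientations cancels, gave 0.20 and 0.03, and -0.18 and -0.03.

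The glucocorticoid receptor gene Nr3c1 stayed near 0 in all groups. Its log ratios were -0.10, 0.05 and -0.27 in SS at 3 days and -0.07, 0.10 and -0.17 in SS overnight. In SS-13BN/Mcw rats they were -0.19, -0.15 and 0.25 at 3 days and -0.09, -0.03 and 0.08 overnight. Each group held pairs on both sides of 0. Group means ran from -0.11 to -0.01, and no comparison of Nr3c1 reached an unadjusted p under 0.05. The 95 percent intervals of its 4 differences between groups reached from -0.38 at the lowest to 0.29 at the highest, and differences within these limits are not excluded.

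Nr3c2, the mineralocorticoid receptor gene, lay on the negative side in 3 groups with all of their pairs. Its log ratios were -0.57, -0.15 and -0.01 in SS at 3 days and -0.48, -0.15 and -0.01 in SS overnight. In SS-13BN/Mcw rats they were -0.03, 0.05 and -0.07 at 3 days and -0.25, -0.25 and -0.02 overnight. In each group the pair of rat 3 lay within 0.07 of 0, with a different rat 3 in each strain. The SS pair of rat 1 was lowest at both times, which by number share that rat. The means were -0.24 ± 0.29 in SS at 3 days, -0.21 ± 0.24 in SS overnight, -0.02 ± 0.06 in SS-13BN/Mcw at 3 days and -0.18 ± 0.13 in SS-13BN/Mcw overnight (SD, n = 3 each). None passed the adjustment, and the smallest adjusted p was 0.284. Between groups Nr3c2 differed most at 3 days, by -0.22 ± 0.15 (SE; SS minus SS-13BN/Mcw, adjusted p = 0.649), with overlapping pairs.

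Sgk1, the kinase downstream of both receptors, had all 3 pairs on the negative side in both groups at 3 days. Its log ratios were -0.25, -0.01 and -0.26 in SS at 3 days and -0.37, -0.22 and 0.29 in SS overnight. In SS-13BN/Mcw rats they were -0.44, -0.31 and -0.43 at 3 days and -0.23, -0.19 and 0.18 overnight. Overnight the pair of rat 3 stood on the positive side in both strains, with a different rat 3 in each. The means were -0.17 ± 0.14 in SS at 3 days, -0.10 ± 0.35 in SS overnight, -0.39 ± 0.07 in SS-13BN/Mcw at 3 days and -0.08 ± 0.23 in SS-13BN/Mcw overnight (SD, n = 3 each). The SS-13BN/Mcw mean at 3 days did not pass the adjustment (adjusted p = 0.114, from 0.00843 to 0.395 over 11 other settings, of which 5 passed and 1 of these, arrays turned by dye, had the opposite sign at 0.19). Its pairs did not overlap those of SS at 3 days (difference 0.22 ± 0.16 SE, SS minus SS-13BN/Mcw, adjusted p = 0.668) or those of SS-13BN/Mcw overnight (difference -0.32 ± 0.17 SE, 3 days minus overnight, adjusted p = 0.463). Pairs did not overlap for 15.8 percent of all probes in the first comparison and 22.7 percent in the second.

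Agt, the source of angiotensin peptides, lay on the negative side in every SS-13BN/Mcw pair measured on both arrays. Its log ratios were -0.29 and 0.11 in the 2 SS pairs at 3 days with both arrays, and -0.39, -0.30 and -0.13 in the SS pairs overnight. In SS-13BN/Mcw the 1 pair with both arrays read -1.04 at 3 days, and the overnight pairs read -0.24, -0.51 and -1.42. The pair of rat 3 was the lowest of SS-13BN/Mcw overnight. The means were -0.09 ± 0.28 in SS at 3 days (SD, n = 2), -0.27 ± 0.13 in SS overnight (SD, n = 3) and -0.72 ± 0.62 in SS-13BN/Mcw overnight (SD, n = 3).

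The overnight mean of Agt in SS-13BN/Mcw passed the adjustment (adjusted p = 0.0419), where 116 of 1100 probes did (10.5 percent). Without the pair of rat 3 it was -0.38 (adjusted p = 0.14), without that of rat 2 it was -0.83 (adjusted p = 0.0789) and without that of rat 1 it was -0.97 (adjusted p = 0.0231). Adjusted p ran from 0.00493 to 0.972 over 11 other settings, of which 8 passed. Overnight the strains differed in Agt by 0.45 ± 0.27 (SE; SS minus SS-13BN/Mcw, adjusted p = 0.94), and the pairs overlapped. At 3 days SS-13BN/Mcw had too few pairs for the test. With pairs of 1 array kept, Agt averaged 0.05 ± 0.31 in SS and -0.62 ± 0.47 in SS-13BN/Mcw at 3 days (SD, n = 3 each), a difference of 0.67 ± 0.29 (SE; adjusted p = 0.576), and the overnight mean in SS-13BN/Mcw then had adjusted p = 0.0629.

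At most 1 of the 6 genes passed in any single group. In SS at 3 days 0 of 6 passed the adjustment, against 0.34 percent of all probes tested, and 1 of 6 (Nr3c2) had an unadjusted p under 0.05, against 12.2 percent. In SS overnight 0 of 6 passed, against 1.14 percent, and 0 of 6 had an unadjusted p under 0.05, against 15.3 percent. In SS-13BN/Mcw at 3 days 1 of 5 passed (Hsd11b1), against 2.98 percent, and 3 of 5 had an unadjusted p under 0.05 (Hsd11b1, Sgk1 and Hsd11b2), against 16.6 percent of 907 probes. In SS-13BN/Mcw overnight 1 of 6 passed (Agt), against 10.5 percent, and 2 of 6 had an unadjusted p under 0.05 (Agt and Hsd11b2), against 30.5 percent of 1100 probes. Pairs of SS and SS-13BN/Mcw did not overlap at 3 days for 3 of 5 genes, against 15.8 percent of all probes, and overnight for 0 of 6, against 10.9 percent. Of the strain difference overnight 5.03 percent of 1053 probes and 0 of 6 genes had an unadjusted p under 0.05, and of the time difference in SS 1.93 percent of 880 probes and 0 of 6 genes. Between times pairs did not overlap for 3 of 5 genes in SS-13BN/Mcw, against 22.7 percent, and for 0 of 6 in SS, against 7.5 percent. All pairs of 1 time on the positive side and all of the other on the negative side was seen for 1 of 5 genes in SS-13BN/Mcw (Hsd11b2), against 5.13 percent of probes, and for 0 of 6 in SS, against 1.36 percent. Between strains this was seen for 0 of 5 at 3 days, against 3.28 percent, and for 0 of 6 overnight, against 1.33 percent.

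Averaged over the 4 groups, the 5 genes with enough pairs all lay on the negative side. The mean was -0.30 ± 0.08 for Hsd11b1 (SE; adjusted p = 0.017), -0.19 ± 0.06 for Sgk1 (SE; adjusted p = 0.0315) and -0.16 ± 0.05 for Nr3c2 (SE; adjusted p = 0.0437). These 3 of 5 passed, against 28.5 percent of 822 probes, and the same 3 had an unadjusted p under 0.05, against 42.7 percent. Hsd11b2 and Nr3c1 averaged -0.06 ± 0.05 and -0.05 ± 0.05 (SE) and did not pass. With the low-numbered rat as a random block, which allows for rats shared between times, the adjusted p was 0.0339 for Hsd11b1, 0.075 for Sgk1 and 0.0655 for Nr3c2, so the calls of Sgk1 and Nr3c2 were lost. Leaving out 1 pair kept the call in 12 of 12 cases for Hsd11b1, in 4 of 12 for Sgk1 (adjusted p from 0.00544 to 0.0811) and in 3 of 12 for Nr3c2 (adjusted p from 0.0197 to 0.105). With the low-numbered rat in Cy3 alone Hsd11b1 averaged -0.18 (adjusted p = 0.107). Of the 4 group means of Hsd11b1, 1 lay beyond -0.16, that of SS-13BN/Mcw at 3 days.

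The 6 genes also differed in how far the 2 dye orientations of a pair stood apart. For Nr3c2 the array with the low-numbered rat in Cy5 read higher than its swapped partner in 12 of 12 pairs, by 0.54 ± 0.18 (SD, n = 12), which was at percentile 90.9 of the 701 probes with all arrays. Sgk1 had the same order in 12 of 12 pairs, by 0.30 ± 0.13, and Nr3c1 in 10 of 12, by 0.18 ± 0.21 (SD, n = 12 each). Hsd11b2 had the opposite order in 12 of 12, with -0.18 ± 0.11, and Hsd11b1 in 11 of 12, with -0.24 ± 0.26 (SD, n = 12 each). Agt had a mean difference of 0.01 ± 0.30 (SD, n = 9) and was higher in 5 of 9. The orientation difference of Nr3c2 exceeded its mean over the 4 groups (-0.16), and with the low-numbered rat in Cy5 alone that mean was 0.11 (adjusted p = 0.179), against -0.43 (adjusted p = 0.000112) with that rat in Cy3 alone.

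**Figure D4:**
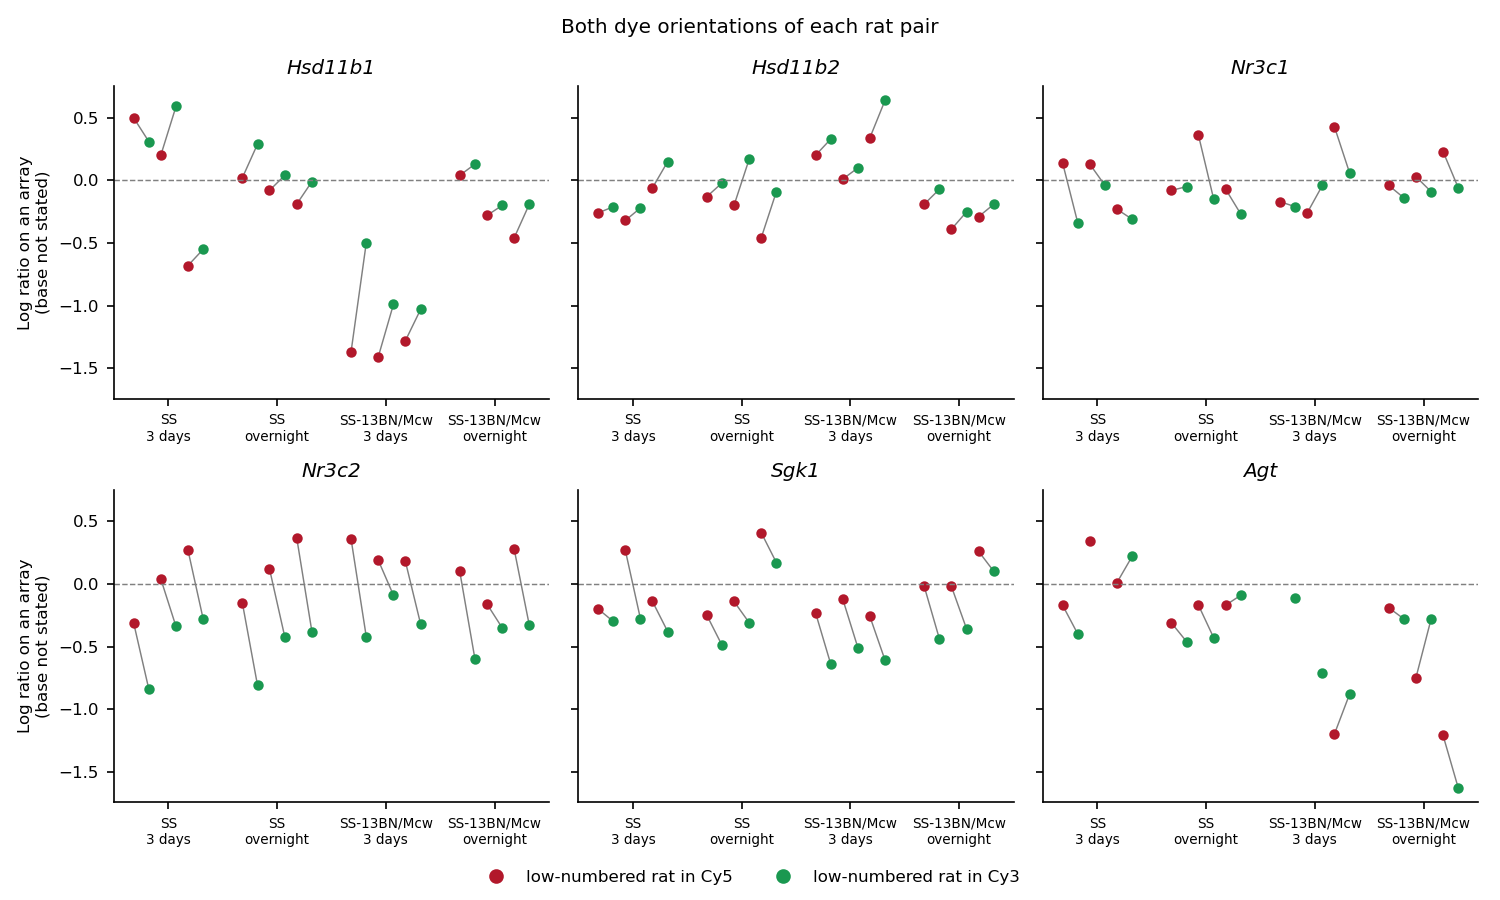
Log ratio (base not stated) of each gene on every array, by group, with a line joining the Cy5 and the Cy3 array of each pair. Nr3c2 and Sgk1 are higher with the low-numbered rat in Cy5 in 12 of 12 pairs, whereas the Hsd11b1 arrays of SS-13BN/Mcw at 3 days lie below 0 in both orientations.

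Likeness over the rat pairs was described against 656 named probes, with no test, since pairs share arrays and rats. Such an r also holds the differences between groups. Hsd11b1 was most like Serpinh1, a collagen chaperone gene (r = 0.87 over 12 pairs), Nid1, a basement membrane gene (r = 0.87), and Nfkb1, which encodes a subunit of a transcription factor (r = 0.84). Serpinh1 read 0.08, 0.10 and -0.03 in SS-13BN/Mcw at 3 days, its 3 lowest pairs, against 0.36 to 0.86 elsewhere, so its shape and not its side was like that of Hsd11b1. For Hsd11b2 the nearest were the mitochondrial genes Mtarc2 (r = 0.87) and Fam162a (r = 0.85) and the fatty acid activating enzyme gene Acsl1 (r = 0.84). Nr3c1 was nearest to Aplp2 (r = 0.84), Nr3c2 to Id1 (r = 0.84) and Sgk1 to Pitx3 (r = 0.92 over 11 pairs). Among the genes themselves Hsd11b2 and Sgk1 had r = -0.70, Hsd11b1 and Nr3c2 r = -0.68, and Agt had too few pairs.

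The gene lists from here on were chosen with earlier results of these data known, so their counts are descriptions only. Other genes of the renin-angiotensin system were sparse, with values for 5 of 21 and up to 4 tested. Of these, Anpep and Mme lay on the negative side past the threshold in both SS-13BN/Mcw groups, 2 of 3 tested at 3 days, against 2.98 percent of all probes, and 2 of 4 overnight, against 10.5 percent. Anpep, aminopeptidase N, which trims angiotensin peptides, read -1.62 ± 0.40 at 3 days (adjusted p = 0.0206) and -1.84 ± 0.76 overnight (adjusted p = 0.00665; SD, n = 3 each). Mme, neprilysin, which degrades angiotensin and natriuretic peptides, read -0.57 ± 0.09 at 3 days (adjusted p = 0.0367) and -0.69 ± 0.41 overnight (adjusted p = 0.01; SD, n = 3 each). In SS they averaged -0.61 ± 0.91 and -0.29 ± 0.29 at 3 days and -0.90 ± 0.51 and -0.24 ± 0.02 overnight (SD, n = 3 each), none past the threshold. At 3 days the call of Anpep was lost without the pair of rat 2 (adjusted p = 0.129) or rat 3 (adjusted p = 0.249), and that of Mme without any 1 of the 3 pairs (adjusted p from 0.0648 to 0.312). Overnight both were lost without the pair of rat 3, with -1.47 (adjusted p = 0.0646) for Anpep and -0.45 (adjusted p = 0.0651) for Mme. Over the 4 groups Anpep averaged -1.24 ± 0.16 and Mme -0.45 ± 0.06 (SE; adjusted p = 0.00029 and 0.000724). These 2 of 3 tested passed there, against 28.5 percent of all probes. The strain differences did not pass (adjusted p from 0.565 to 0.898), and both genes are also markers of the proximal tubule. With arrays turned by dye both genes lay on the positive side in both SS-13BN/Mcw groups. In that setting a ratio read alike on both arrays cancels, so it is no check if arrays were already in 1 direction.

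Genes of aldosterone-regulated sodium transport had values for 5 of 21, of which 4 were tested. At 3 days in SS-13BN/Mcw all 4 lay on the positive side and 2 of 4 passed, against 2.98 percent of all probes. These were Scnn1a, the alpha subunit of the epithelial sodium channel, with 0.28 ± 0.09 (adjusted p = 0.0293), and Atp1b1, the beta subunit of the sodium pump, with 0.41 ± 0.22 (adjusted p = 0.0351; SD, n = 3 each). Both calls were lost without the pair of rat 2 (adjusted p = 0.126 for Scnn1a and 0.18 for Atp1b1) or rat 3 (adjusted p = 0.298 and 0.391), and they held in 7 and 8 of 11 other settings. Scnn1a read 0.07, 0.06 and 0.09 in SS at 3 days and -0.13, 0.01 and -0.03 in SS overnight. In SS-13BN/Mcw it read 0.21, 0.26 and 0.38 at 3 days and -0.08, -0.01 and -0.16 overnight, so the pairs of the 2 times did not overlap (difference 0.37 ± 0.09 SE, adjusted p = 0.276). The same held for 22.7 percent of all probes. Neither the pump subunit Fxyd2 nor Fxyd4, a corticosteroid-induced regulator of the pump, passed in any comparison. Over the 4 groups Atp1b1 averaged 0.28 ± 0.05 (SE; adjusted p = 0.00124) and Scnn1a 0.06 ± 0.03 (SE; adjusted p = 0.174). There 1 of 4 passed, against 28.5 percent of all probes. With arrays turned by dye Scnn1a and Atp1b1 lay on the negative side in SS-13BN/Mcw at 3 days.

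Among genes of steroid receptor chaperones, coregulators and steroid enzymes, 6 of 30 had values. Ywhah, an adaptor protein that binds the glucocorticoid receptor among other partners, was the 1 of 4 tested that passed in SS-13BN/Mcw overnight, against 10.5 percent of all probes, with 0.41 ± 0.09 (SD, n = 3; adjusted p = 0.0145). Without the pair of rat 3 the call was lost (adjusted p = 0.0976). Its means in the other groups, none past the threshold, were 0.31 ± 0.24 in SS at 3 days, 0.36 ± 0.07 in SS overnight and, for SS-13BN/Mcw at 3 days, 0.06 ± 0.10 (SD, n = 3 each). Over the 4 groups Ywhah averaged 0.29 ± 0.04 (SE; adjusted p = 0.000724), the 1 of 2 tested that passed, against 28.5 percent of all probes. Of 29 genes known to be induced by glucocorticoid 10 had values. Mt2A, a metallothionein, passed on the positive side in SS overnight with 0.57 ± 0.10 (adjusted p = 0.0177) and in SS-13BN/Mcw overnight with 0.37 ± 0.21 (adjusted p = 0.024; SD, n = 3 each), 1 of 6 tested in SS, against 1.14 percent of all probes, and, with Glul, 2 of 6 in SS-13BN/Mcw, against 10.5 percent. The Mt2A call was lost in SS without the pair of rat 1 (adjusted p = 0.225) or rat 3 (adjusted p = 0.0629), and in SS-13BN/Mcw without that of rat 2 (adjusted p = 0.14) or rat 3 (adjusted p = 0.0646). Glul, glutamine synthetase, passed on the negative side there with -0.65 ± 0.50 (SD, n = 3; adjusted p = 0.0197), from pairs at -0.23, -0.49 and -1.21. Without the pair of rat 3 Glul was -0.36 (adjusted p = 0.129), and without that of rat 2 it was -0.72 (adjusted p = 0.0501). Over the 4 groups Mt2A averaged 0.39 ± 0.04 and Glul -0.31 ± 0.07 (SE; adjusted p = 0.000149 and 0.00979). These 2 of 5 tested passed there, against 28.5 percent of all probes. The list had a median of 0.12 over its 5 tested genes in SS-13BN/Mcw at 3 days, against 0 over all probes, and 0 of 5 passed. With arrays turned by dye Mt2A lay on the negative side in both overnight groups and Ywhah read -0.03 in SS-13BN/Mcw overnight. A ratio read alike on both arrays cancels there, so these values are no check if arrays were already in 1 direction.

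The marker lists too were chosen with earlier results of these data known, so shares set beside all probes are descriptions only. Markers of the proximal tubule lay mostly on the negative side in both strains. Of those tested, 13 of 14 did in SS at 3 days and 14 of 16 in SS overnight. In SS-13BN/Mcw 14 of 17 did at 3 days and 16 of 18 overnight. Of 17 proximal tubule markers tested in SS-13BN/Mcw at 3 days 9 passed on the negative side and 0 on the positive, where 2.98 percent of all probes passed in either direction. Overnight 14 of 18 passed on the negative side and 0 on the positive, where 10.5 percent of all probes passed. In SS 0 of 14 passed at 3 days and 0 of 16 overnight, where 0.34 and 1.14 percent of all probes did, and 10 and 8 of them had an unadjusted p under 0.05 in limma. The strain difference of these markers passed for 0 of 14 at 3 days and 0 of 16 overnight, as for 0 percent of all probes. There 3 and 9 of them had an unadjusted p under 0.05 in limma, against 8.37 and 5.03 percent of all probes. The mean of the 10 markers with values in all pairs was -0.96, -0.28 and -0.17 in SS at 3 days, and -0.43, -0.65 and -0.31 in SS overnight. It was -0.77, -1.02 and -0.95 in SS-13BN/Mcw at 3 days, and -0.65, -0.92 and -1.72 in SS-13BN/Mcw overnight. In SS-13BN/Mcw overnight the pair of rat 3 was lowest both in this mean and in Agt. Hsd11b1 in those overnight pairs read 0.08, -0.24 and -0.33, also lowest in the pair of rat 3, and all above its values at 3 days. Its order of pairs was that of this mean in both SS-13BN/Mcw groups and in neither SS group.

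Markers of interstitium and vessels, 4 with values in all pairs, had means of 1.03, 0.18 and 0.42 in SS at 3 days and 0.93, 0.26 and 0.33 in SS overnight. In SS-13BN/Mcw they were 0.03, 0.10 and 0.08 at 3 days and 0.26, 0.42 and 0.69 overnight, so the group with the lowest Hsd11b1 was also the one nearest to 0 for these markers. In single groups 1 of 6 tested passed, Col3a1 in SS overnight (adjusted p = 0.0435), where 1.14 percent of all probes did. In SS 4 of 6 had an unadjusted p under 0.05 (limma) at 3 days and overnight, against 12.2 and 15.3 percent. In SS-13BN/Mcw 0 of 6 did at 3 days and 3 of 6 overnight, against 16.6 and 30.5 percent. Between strains 3 of 6 did at 3 days and 0 of 6 overnight, against 8.37 and 5.03 percent, and none passed. Over the 4 groups 4 of 6 passed on the positive side, against 28.5 percent. The pair mean of 5 markers of thick ascending limb and distal tubule ranged from -0.32 to 0.04 and that of 2 collecting duct markers from -0.20 to 0.29. Of the blood and leukocyte markers 1 had values in all pairs, Hbb, which ranged from -0.36 to 0.42, and the leukocyte marker C1qb had values in 7 pairs, from -0.19 to 0.80. The fat marker Fabp4 ranged from -0.40 to 1.32. The part of these markers in the results for Hsd11b1 and Agt was not tested.

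**Figure D5:**
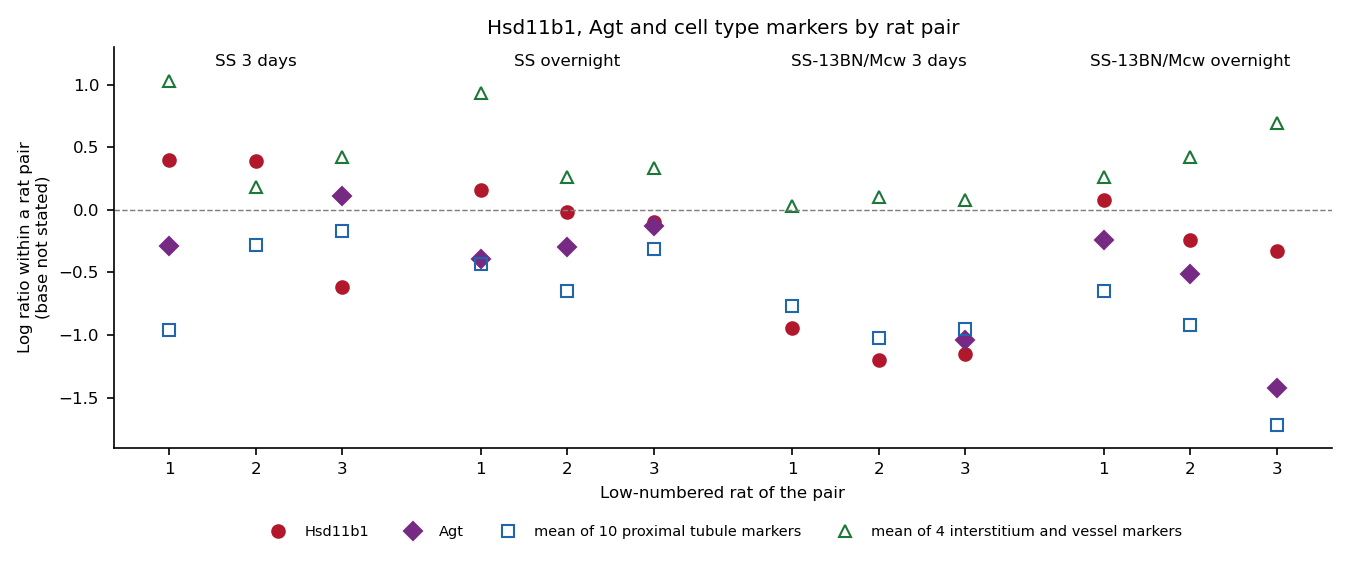
Log ratio (base not stated) of Hsd11b1 and Agt in each rat pair beside the mean of 10 proximal tubule markers and of 4 markers of interstitium and vessels. The proximal tubule mean is below 0 in all 12 pairs, and Agt and that mean are lowest in the SS-13BN/Mcw pair of rat 3 overnight (-1.42 and -1.72).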

How the data were processed

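The deposited values were log ratios of 2-colour cDNA arrays, 1 per probe and array, and what the authors did before that is not given in the sources used here. As deposited, array means were at most 0.000822 from 0 and array medians lay between -0.0384 and 0.0668. Gene symbols were those of the platform annotation: 1421 of 1426 probes with 1 symbol matched RefSeq by gene number, while 29 had several symbols and 311 none. Array medians were set to 0, and the 2 orientations of a pair were averaged. limma 3.58.1 in R 4.3.3 fitted 1 coefficient per group over 12 pairs with eBayes, two-sided, with Benjamini-Hochberg adjustment over all tested probes at 0.05. A probe needed both orientations in 2 of 3 pairs of each group compared.

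Rats 1 to 3 of a strain recurred at both times by their numbers in the titles, and their deviations from the group means correlated with r from -0.0241 to 0.62. Blocking on them was an alternative, beside other scalings, single orientations, arrays turned by dye, other filters, a fit of single arrays and leaving out each pair. Nothing says that pairs were bred or treated apart, so p-values measure the spread between these pairs. The genes and lists were chosen with earlier results of these data known. From each list, genes past the threshold in a comparison and up to 4 with the smallest p in the mean of the 4 groups were named, and for each gene the 3 most alike probes.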

Additional observations from a re-analysis of the deposited data

Results flagged for a closer look

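In a few cases all 3 pairs of 1 group lay on the positive side and all 3 pairs of the group it was set against on the negative side. Such a pattern was seen in 3.28 percent of 824 probes between strains at 3 days and in 5.13 percent of 897 between times in SS-13BN/Mcw. The differences themselves were tested and none passed the adjustment.

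Hsd11b2 averaged 0.27 ± 0.22 at 3 days and -0.23 ± 0.10 overnight in SS-13BN/Mcw (SD, n = 3 each), a difference of 0.50 ± 0.13 (SE; adjusted p = 0.276), which was -0.03 with arrays turned by dye. Scnn1a averaged 0.28 ± 0.09 at 3 days and -0.08 ± 0.07 overnight in that strain (SD, n = 3 each), a difference of 0.37 ± 0.09 (SE; adjusted p = 0.276). Fxyd2, a regulatory subunit of the sodium pump, averaged -0.08 ± 0.04 in SS and 0.12 ± 0.06 in SS-13BN/Mcw at 3 days (SD, n = 3 each), a difference of -0.20 ± 0.09 (SE; adjusted p = 0.565). Between times in SS-13BN/Mcw Fxyd2 differed by 0.26 ± 0.10 (SE; adjusted p = 0.361). Anxa1, a glucocorticoid-induced regulator of inflammation, averaged -0.11 ± 0.08 at 3 days and 0.09 ± 0.10 overnight in SS-13BN/Mcw (SD, n = 3 each), a difference of -0.21 ± 0.10 (SE; adjusted p = 0.456).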

How the results depend on the processing

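Turning 1 array of each pair, as if the ratios were Cy5 over Cy3, changed many directions. Nr3c2 then read 0.24 in SS at 3 days, 0.32 in SS overnight, 0.26 in SS-13BN/Mcw at 3 days, 0.25 in SS-13BN/Mcw overnight and 0.27 over the 4 groups, and Nr3c1 read 0.09 over the 4 groups. Sgk1 read 0.15 in SS at 3 days, 0.19 in SS-13BN/Mcw at 3 days, 0.15 in SS-13BN/Mcw overnight and 0.15 over the 4 groups, and Agt read 0.01 in SS-13BN/Mcw overnight. Anpep read 0.41 in SS-13BN/Mcw at 3 days, 0.44 overnight and 0.37 over the 4 groups, and Mme 0.15, 0.20 and 0.18 in the same order. Mt2A read -0.24 in SS overnight, -0.20 in SS-13BN/Mcw overnight and -0.21 over the 4 groups, and Ywhah -0.03 in SS-13BN/Mcw overnight and -0.05 over the 4 groups. Scnn1a read -0.01 and Atp1b1 -0.13 in SS-13BN/Mcw at 3 days, and Atp1b1 -0.15 over the 4 groups. Hsd11b2 then read -0.09 in SS-13BN/Mcw at 3 days, and differed by 0.03 between strains at 3 days and by -0.03 between times in SS-13BN/Mcw. With the low-numbered rat in Cy5 alone Nr3c2 read 0.11 over the 4 groups. Hsd11b1 kept its side in SS-13BN/Mcw at 3 days in all 11 other settings (-1.35 to -0.26). With 1 array of a pair turned, a ratio read alike in both orientations cancels, and only the distance between the orientations is left. The turned values, -0.26 for Hsd11b1 among them, thus follow the order of the orientations. If the arrays were already in 1 direction, they are no check of the rat-to-rat ratio. Why the orientations stood apart was not tested.

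The number of the 6 genes past the threshold moved as follows. In SS at 3 days and in SS overnight it was 0, against 2 with arrays turned and 1 with the low-numbered rat in Cy3 alone. In SS-13BN/Mcw at 3 days it was 1, against 3 with arrays turned and in the array-level fit, 2 with arrays scaled, in Cy3 alone and with that group alone, and 0 to 1 without 1 pair. In SS-13BN/Mcw overnight it was 1, against 2 with arrays turned, in Cy3 alone and in the array-level fit, 0 with pairs of 1 array kept and with that group alone, and 0 to 1 without 1 pair. Between strains at 3 days it was 0, against 1 with arrays scaled, in Cy5 alone and in the array-level fit, and 0 to 1 without 1 pair. Between times in SS-13BN/Mcw it was 0, against 2 in the array-level fit. For the difference of time differences it was 0, and 0 to 1 without 1 pair. Over the 4 groups it was 3, against 5 with arrays turned and 1 to 3 without 1 pair. With the replicate block of low-numbered rats it was 1 over the 4 groups, and the random or fixed block changed no other call of the 6 genes.

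Over all probes, counts past the threshold were highest with arrays turned by dye, with 344 against 3 in SS at 3 days, 325 against 13 in SS overnight, 299 against 27 in SS-13BN/Mcw at 3 days, 309 against 116 in SS-13BN/Mcw overnight and 568 against 234 over the 4 groups. If the arrays were already in 1 direction, the counts with arrays turned are of probes whose dye orientations stood apart. With each group fitted alone 0 probes passed in SS at 3 days and in SS-13BN/Mcw overnight. With arrays scaled 7 against 0 passed between strains at 3 days, and with single arrays 8 against 0 between times in SS-13BN/Mcw. Without 1 pair the counts ran from 0 to 10 in SS at 3 days, 0 to 6 in SS overnight, 0 to 29 in SS-13BN/Mcw at 3 days and 12 to 92 in SS-13BN/Mcw overnight.

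Depth is not known for these arrays. Missing values limited Agt, which could not be tested in SS-13BN/Mcw at 3 days, and 3 pairs a group limit all comparisons.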
